A study of Homo sapiens with 6 samples.

Results

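The genes described here are BIRC5, CDCA8, INCENP, AURKA, AURKB, TPX2 and PLK1, which act in mitosis. Every probe annotated with one of these 7 symbols was taken, which gave 10 of the 47231 probes on the array. BIRC5, INCENP and AURKA had 2 probes each and the other genes 1 each. The genes were chosen by their normalised intensities in siNRCP against sicontrol on these same arrays (the changes of TPX2, BIRC5 and CDCA8) and completed with close partners, so their differences are given as a description and not as evidence.

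The cells were SKOV3, an established human ovarian carcinoma cell line. For 48 h they had received either control siRNA (sicontrol, 3 samples) or siRNA against the long non-coding RNA NRCP (siNRCP, 3 samples). Total RNA from each sample was read on 1 Illumina bead array, which reports the brightness of each probe. All 6 samples are of this 1 cell line, and the labels do not say whether the 3 samples of a group came from separate cultures, so the spread between them may be technical.

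Survivin (BIRC5), borealin (CDCA8), the scaffold protein INCENP and the kinase AURKB form the chromosomal passenger complex. This complex sits at centromeres in early mitosis, corrects faulty attachments of chromosomes to the spindle, and moves to the spindle midzone for cell division. AURKA acts mainly at centrosomes and spindle poles, where TPX2 binds and activates it, and PLK1 is another mitotic kinase, with roles in mitotic entry, spindle assembly and cytokinesis. Transcripts of these genes are known to rise in G2 and mitosis, through promoters that carry a cell cycle genes homology region (CHR), bound by the DREAM and MYBL2 complexes, and CCAAT boxes, bound by NF-Y.

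Promoter sequences for 4 of the 7 genes (CDCA8, INCENP, PLK1 and AURKB) were in the RefSeq table of build GRCh38.p14. The 110 bases just before the start site are shown for 3 of these genes, since these stretches hold the elements named above. AURKB was left out because its listed start sites lie inside the annotated span of the gene. Capitals mark the CHR letters TTTGAA and the CCAAT box, which is written ATTGG where it lies on the other strand. The CDCA8 stretch is chr1:37692406-37692515, the INCENP stretch chr11:62123901-62124010 and the PLK1 stretch chr16:23678779-23678888, all on the plus strand.
CDCA8: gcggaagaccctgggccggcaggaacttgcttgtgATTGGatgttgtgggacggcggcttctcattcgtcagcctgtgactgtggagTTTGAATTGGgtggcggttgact
INCENP: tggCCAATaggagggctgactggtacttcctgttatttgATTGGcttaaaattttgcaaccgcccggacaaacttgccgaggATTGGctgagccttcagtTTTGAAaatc
PLK1: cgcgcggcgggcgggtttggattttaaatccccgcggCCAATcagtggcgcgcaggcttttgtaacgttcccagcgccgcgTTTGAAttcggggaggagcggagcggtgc

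The letters TTTGAA were searched on both strands in the 250 bases before the start site. The table holds 5 promoters of the 4 genes, 2 of them of AURKB, whose windows overlap, so the members are counted by gene. The letters were present in 3 of the 4 genes, and in 13.3% of all 35116 promoters in the table, which are counted by promoter. Counted with -1 as the last base before the start site, they began at position -23 in CDCA8, -10 in INCENP and -29 in PLK1, each time on the strand of the gene. The letters CCAAT were present in all 4 genes and in 32% of all promoters. In CDCA8 1 of the 3 matches shares a base with the CHR letters. AURKB held CCAAT but not TTTGAA in the windows before its 2 listed start sites. Both of those start sites, and the windows before them, lie inside the annotated span of the gene. The bases before the annotated start of AURKB were therefore not searched, and whether they hold TTTGAA is not known here. The CHR variant TTCGAA (1.19% of all promoters) and the E2F pattern TTTNNCGC (5.92%) were in 0 of the 4 genes. A match describes letters in a window and does not show a bound site.

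Before any result, the arrays themselves differed. The mean raw intensity was 555 to 563 on the sicontrol arrays and 554, 373 and 486 on siNRCP arrays 1 to 3. Over the 19637 probes above background, siNRCP array 1 correlated at 0.935 and 0.946 with siNRCP arrays 2 and 3, and at 0.973 to 0.980 with the 3 sicontrol arrays (Pearson r of log2 values across probes). Arrays 2 and 3 of siNRCP correlated at 0.992 with each other and at 0.928 to 0.964 with the sicontrol arrays. Results are therefore also given without siNRCP array 1. That array was picked by its likeness to sicontrol, so the fit without it favours larger differences between the groups. It is a description and no independent check. The symbol NRCP was on no probe, and its knockdown could not be checked here. Of 10 epithelial and ovarian carcinoma markers 9 were above background, while 0 of 3 leukocyte, 1 of 3 endothelial and 2 of 4 fibroblast markers were, with group means of 5.90 to 6.68 for these last 3 lists against background levels of 6.41 to 6.50.

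Values below are log2 intensities after background correction and quantile normalization, and a change is siNRCP minus sicontrol on that scale. Background is the level below which 95% of the probes of olfactory receptor genes lie, which are hardly expressed outside the nose. A probe was called when its Benjamini-Hochberg adjusted p over all 47231 probes was under 0.05 in limma, a linear model that shares information on the spread between probes. The SE and 95% interval of each change also come from this model, with the spread of a probe drawn towards that of all probes. They therefore do not follow from the SDs of that probe alone. Of the 10 probes 9 were above background on all 6 arrays. Calls as higher in siNRCP were made for 5 of the 10, in BIRC5 (both probes), CDCA8, INCENP (the brighter probe) and TPX2, and 0 were called lower. Over all probes 0.739% were called higher and 0.915% lower. Of the 11422 named genes above background, each by its brightest probe, 256 (2.24%) were called higher and 303 lower. Shares over all probes or all named genes, here and below, include those below background and so lie lower. The limma adjusted p of the 5 probes lay between 0.0124 and 0.0413, and these values only record where the probes stand in the fit that brought the genes to notice. Of the 10 probes, 7 had all siNRCP arrays above all sicontrol arrays, against 9.15% of all probes and 14.1% of those above background. The 7 include the dimmer INCENP probe, which was above background on only 1 array and so has no part in the 14.1%. The median change over the 7 genes, each by its brightest probe, was 0.79, against 0.01 over all 20046 named genes and 0.02 over those above background. In bulk RNA, more cells in G2 or mitosis and more RNA per cell cannot be told apart.

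**Figure D1:**
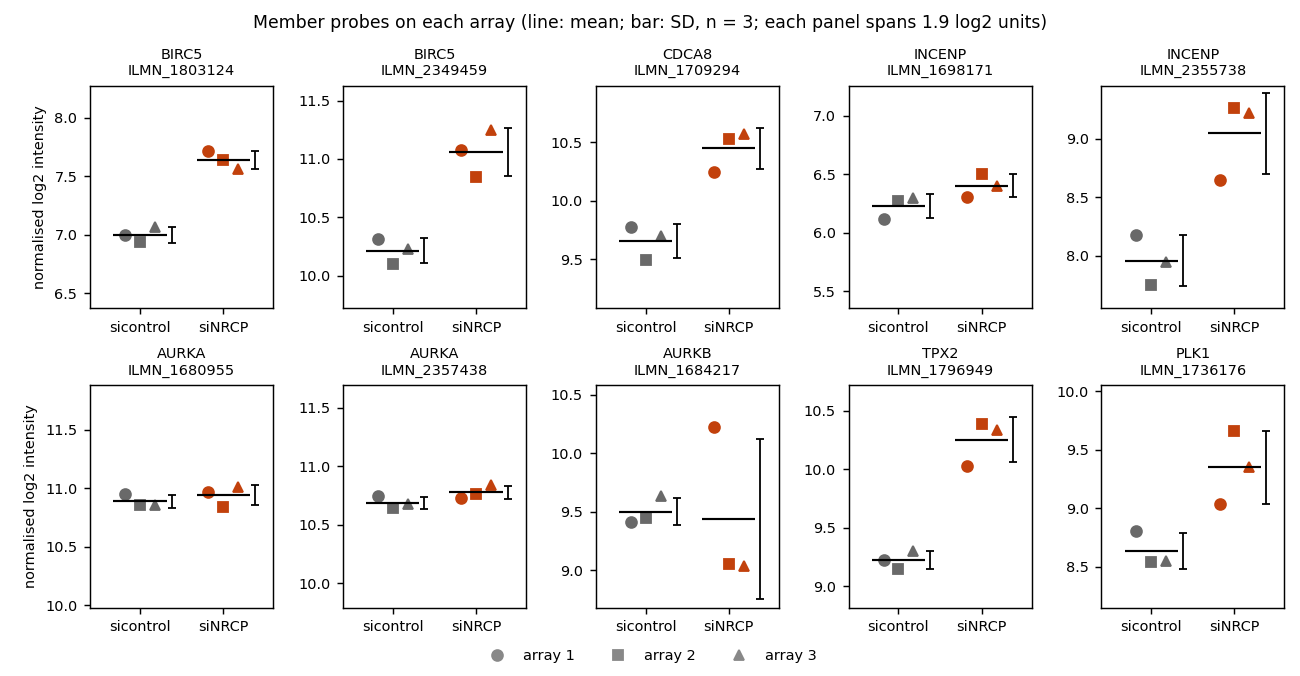
Normalised log2 intensity (y axis) of the 10 probes on the 3 sicontrol (grey) and 3 siNRCP (orange) arrays, with the mean as a line and the SD as a bar. The groups are separate in BIRC5, CDCA8, INCENP, TPX2 and PLK1 and overlap in AURKA and AURKB.

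Survivin is the smallest subunit of the passenger complex and binds the histone mark that places the complex at centromeres. Its brighter probe (ILMN_2349459) read 10.32, 10.10 and 10.23 in sicontrol samples 1, 2 and 3, and 11.08, 10.85 and 11.25 in the siNRCP samples of the same numbers. The siNRCP arrays all lay above the sicontrol arrays, and array 2 was the lowest of its group in both. The change was 0.84 ± 0.13 (SE, n = 3 per group; 1.79-fold), from 10.22 ± 0.11 (SD) to 11.06 ± 0.20.

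The dimmer BIRC5 probe (ILMN_1803124) read 7.0, 6.94 and 7.07 in sicontrol and 7.71, 7.64 and 7.57 in siNRCP, a change of 0.64 ± 0.09 (SE, n = 3 per group). Both probes were separate between the groups. Within the groups they did not share an order of the arrays, with r = -0.11 over the 6 deviations from the group means. In raw intensity the brighter probe read 1198 to 1524 in sicontrol and 1268 on siNRCP array 2, the darkest array. The dimmer probe read 179 to 195 in sicontrol and 193 on that array. On siNRCP array 2 the separation of both probes thus appeared only after normalization.

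Borealin links survivin to INCENP. The CDCA8 probe (ILMN_1709294) read 9.78, 9.50 and 9.70 on the sicontrol arrays in order, against 10.25, 10.53 and 10.57 on the siNRCP arrays in order. The groups did not overlap, and siNRCP array 1 was the lowest of its group. The change was 0.79 ± 0.12 (SE, n = 3 per group; 1.73-fold). In raw intensity siNRCP array 2 read 1031, inside the sicontrol range of 799 to 1070.

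INCENP is the scaffold on which the passenger complex assembles, and its C-terminal part activates AURKB. Its brighter probe (ILMN_2355738) read 8.18, 7.75 and 7.95 on the sicontrol arrays in order, against 8.65, 9.26 and 9.23 on the siNRCP arrays in order. The groups were separate, and siNRCP arrays 2 and 3 lay clearly above array 1. The change of 1.09 ± 0.19 (SE, n = 3 per group; 2.13-fold) was the largest among the 10 probes, and the SD was 0.22 in sicontrol and 0.34 in siNRCP. In raw intensity the siNRCP arrays (464 to 654) also lay above the sicontrol arrays (273 to 386). The second INCENP probe (ILMN_1698171) was above background on 0 sicontrol and 1 siNRCP array, at 6.23 ± 0.10 and 6.40 ± 0.10 (SD, n = 3), so it gives no measure of the change.

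AURKB is the kinase of the passenger complex, and whether its change differs from those of its partners was not tested. Its probe (ILMN_1684217) read 9.42, 9.45 and 9.64 on the sicontrol arrays in order, against 10.23, 9.06 and 9.04 on the siNRCP arrays in order. Array 1 of siNRCP was above, and arrays 2 and 3 below, every sicontrol array. The mean change was -0.06 ± 0.30 (SE, n = 3 per group; 95% interval -0.77 to 0.65). The SD was 0.12 in sicontrol and 0.68 in siNRCP, a spread larger than that of 93.1% of probes above background. Without siNRCP array 1 the change was -0.46 and the probe was called lower, and without array 2 or 3 it read 0.13 or 0.14.

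The siNRCP arrays also differed among themselves by gene span. Across 11415 named genes above background, the value on siNRCP array 1 was subtracted from the mean of arrays 2 and 3. This difference ranked with the span of the gene on the genome (Spearman rho = 0.42), a description over genes that are not independent. AURKB has the shortest span of the 7 genes, 5845 bp, and its difference was -1.18. Among the 2272 genes within a factor of 2 of its span the median was -0.20, and 9.33% of them lay lower than AURKB. TPX2, with the longest span at 62511 bp, had a difference of 0.33 against a median of 0.32 among genes of like span. PLK1 (11479 bp) had 0.47 against -0.04 and INCENP (29159 bp) 0.59 against 0.16, so both lay above most genes of their span. CDCA8 had 0.31 against 0.06, BIRC5 -0.03 against -0.04 and AURKA -0.04 against 0.12. Over the same 11415 genes the change from sicontrol to siNRCP also ranked with span, at a Spearman rho of 0.22. The part of gene span in the differences and in the changes was not tested.

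**Figure D2:**
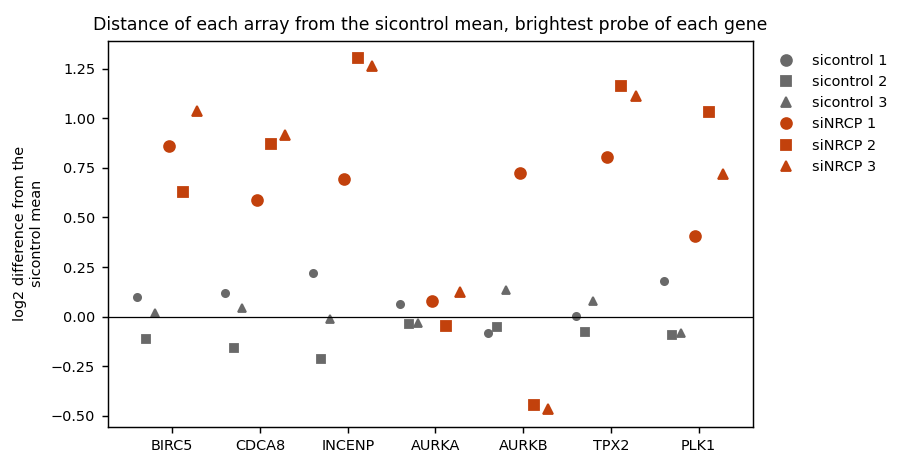
Difference of each array from the sicontrol mean (y axis, log2) for the brightest probe of each gene, with sicontrol arrays in grey and siNRCP arrays in orange, and marker shapes for array numbers. AURKB shows 1 siNRCP array at 0.72 and the other two at -0.45 and -0.47, while AURKA stays near 0.

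AURKA was not separated between the groups. Its brighter probe (ILMN_1680955) read 10.96, 10.85 and 10.86 in sicontrol and 10.97, 10.84 and 11.02 in siNRCP. These ranges overlap. The change was 0.05 ± 0.09 (SE, n = 3 per group; 95% interval -0.16 to 0.26), and 0.09 ± 0.08 on the second probe (ILMN_2357438; interval -0.11 to 0.28). The SD was 0.06 and 0.09 on the first probe and 0.05 and 0.06 on the second, so these were among the steadiest of the 10 probes. Under median scaling in place of quantile normalization both changes turned to -0.19 and -0.15, where the median gene above background itself read -0.14.

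TPX2, the activator of AURKA, was higher on all siNRCP arrays; whether its change differs from that of AURKA was not tested. Its probe (ILMN_1796949) read 9.23, 9.15 and 9.31 on the sicontrol arrays in order, against 10.03, 10.39 and 10.34 on the siNRCP arrays in order. The gap between the groups was wider than the spread inside either. The change was 1.03 ± 0.12 (SE, n = 3 per group; 2.04-fold), with an SD of 0.08 in sicontrol and 0.19 in siNRCP. The raw intensity was also separate, 633 to 746 in sicontrol and 941 to 1317 in siNRCP.

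PLK1, which phosphorylates many spindle and centrosome proteins, read 8.81, 8.54 and 8.55 in sicontrol and 9.04, 9.66 and 9.35 in siNRCP (ILMN_1736176). The groups did not overlap, but siNRCP array 1 lay only 0.23 above sicontrol array 1. The change of 0.72 ± 0.17 (SE, n = 3 per group; 1.65-fold) was not called, at a limma adjusted p of 0.0989. In raw intensity the sicontrol arrays read 435 to 573 and the siNRCP arrays 593 to 710.

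The members fell into different patterns inside the siNRCP group. CDCA8, INCENP, TPX2 and PLK1 were lowest on siNRCP array 1, by 0.20 to 0.40 below their group mean, while AURKB was 0.79 above its own. Over the 6 deviations from the group means, INCENP correlated at 0.97 with CDCA8, 0.88 with TPX2 and 0.89 with PLK1, and at -0.85 with AURKB. BIRC5 correlated at 0.94 with AURKA and between -0.28 and 0.32 with the others. These are descriptions over 6 arrays, and the siNRCP arrays have the larger deviations.

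Without siNRCP array 1 the changes were 0.83 for BIRC5, 0.88 for CDCA8, 1.28 for INCENP, 1.13 for TPX2 and 0.87 for PLK1, each by its brightest probe. All 5 were called higher in that fit, in which 21.1% of all probes were called. Leaving out any 1 array kept the change of these genes at 0.57 or more, but the calls rested on the choice of arrays. Without sicontrol array 1, 2 or 3, or without siNRCP array 3, 0 of the 10 probes were called, and without siNRCP array 2 the called probes were the brighter BIRC5 probe and TPX2. The counts over all 47231 probes in those fits were also low, in that order 12, 18, 10, 39 and 188, and leaving out an array weakens the test. Under median scaling 0 of the 10 were called. There the median change of the 7 genes was 0.55, or 0.69 above the median gene above background.

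**Figure D3:**
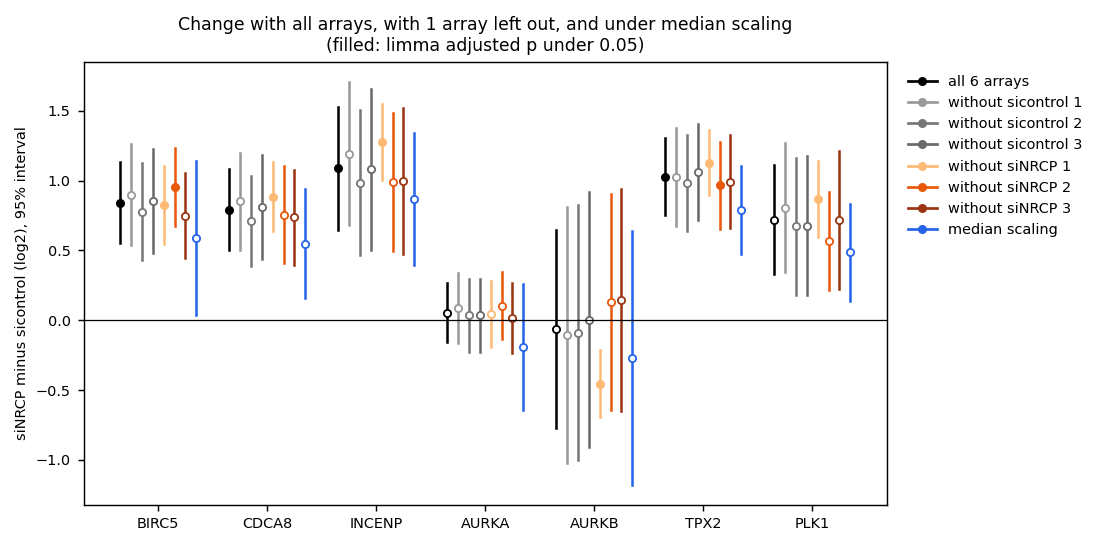
Change from sicontrol to siNRCP (y axis, log2) with its 95% interval for each gene's brightest probe, with all 6 arrays, with each array left out in turn, and under median scaling. Filled points are calls, and AURKB moves from -0.46 to 0.14 with the siNRCP array that is left out.

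Genes that bring the passenger complex to chromosomes or are its targets were mostly higher, without a call. Of the 11 genes in this list 0 were called, 10 had a change above 0, and the median was 0.33. Over all named genes the median was 0.01, 51.7% had a change above 0, 1.28% were called higher and 1.51% lower. BUB1, the checkpoint kinase whose histone mark recruits the complex, read 0.83 ± 0.17 (SE over 3 arrays per group, limma adjusted p = 0.073). KIF20A, the motor that carries the complex to the midzone, read 0.71 ± 0.17 (0.11). CBX5, a heterochromatin protein that binds INCENP, read -0.94 ± 0.37 (0.32). The list's median was 0.08 under median scaling, and without siNRCP array 1 it was 0.44, with 6 genes called higher and 1 lower.

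Among the 15 partners of AURKA and TPX2, 0 were called and 12 had a change above 0 (51.7% of all named genes), with a median of 0.14. Under median scaling it was -0.09, where the median gene above background read -0.14. The spindle protein HMMR, which binds TPX2, read 0.91 ± 0.25 (SE over 3 arrays per group, limma adjusted p = 0.15), and 0.75 on its second probe. TACC3, an AURKA substrate at the spindle, read 0.82 ± 0.16 (0.056), and its microtubule-binding partner CKAP5 read 0.71 ± 0.37 (0.47) and 0.31 on its dimmer probe. Without siNRCP array 1, 6 genes of this list were called higher and 2 lower. That fit called 21.1% of all probes (10.6% higher). Each other fit without 1 array called 0 of the list.

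Of the 13 genes of the PLK1 circuit and the CDK1 switch 0 were called, and 8 were above 0 (51.7% of all named genes). Their median was 0.28, and 0.07 under median scaling, where the median gene above background read -0.14. WEE1, the kinase that restrains CDK1 and that PLK1 marks for destruction, read -0.83 ± 0.16 (SE over 3 arrays per group, limma adjusted p = 0.058). The midzone protein PRC1 read 0.67 ± 0.25 (0.30) and the cytokinesis factor ECT2 0.51 ± 0.24 (0.43). CDK1 itself read -0.38, CCNB1 -0.16 and FBXO5 -0.27, while CCNB2 read 0.11, CCNA2 0.37, CDC25C 0.28 and PKMYT1 0.43. These genes were picked for mention with their values known. Without siNRCP array 1, 4 genes of this list were called higher and 3 lower, where 21.1% of all probes were called and 10.6% were called higher. Each other fit without 1 array called 0 of the list.

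The anaphase-promoting complex (APC/C) degrades AURKA, AURKB, TPX2 and PLK1 as cells leave mitosis. Of the 15 genes of its subunits, activators and ubiquitin-conjugating enzymes 1 fell and 0 rose, with a median of -0.16. A change above 0 was seen in 5 and below 0 in 10. Among all named genes 1.28% were called higher, 1.51% lower, and 51.7% had a change above 0. Under median scaling the list's median was -0.25, where the median gene above background read -0.14. The fit without siNRCP array 1 called 2 of these genes higher and 6 lower, and 21.1% of all probes (10.6% higher). Each other fit without 1 array called 0 of them. ANAPC5, a scaffold subunit, fell by 0.79 ± 0.12 (SE over 3 arrays per group, limma adjusted p = 0.028), from 11.40, 11.13 and 11.22 in sicontrol to 10.28, 10.60 and 10.51 in siNRCP. The groups are well apart there, although the call was lost in 5 of the 6 fits that left out 1 array (adjusted p up to 0.18). CDC26 read -0.99 ± 0.35 (0.26), ANAPC11 -0.87 ± 0.38 (0.37) and ANAPC10 -0.53 ± 0.37 (0.62). UBE2C, chosen after its values were seen, was, like AURKB, above every sicontrol array on siNRCP array 1 and below them on arrays 2 and 3. It read 11.65, 10.04 and 10.05 on siNRCP arrays 1 to 3 and 10.99 to 11.20 in sicontrol. ANAPC10, RAN among the AURKA and TPX2 partners, and GINS2 of the S phase genes had the same pattern. The pattern was thus not particular to UBE2C and AURKB.

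Of the 21 genes that control transcription in the cell cycle 2 fell and 0 rose, with a median of 0.25, and 14 had a change above 0. Among all named genes 1.28% were called higher, 1.51% lower, and 51.7% had a change above 0. Under median scaling the list's median was 0.06, where the median gene above background read -0.14. Without siNRCP array 1, 10 of these genes were called higher and 3 lower, where 21.1% of all probes were called and 10.6% were called higher. Each other fit without 1 array called 0 of these genes higher and 1 or 2 lower. E2F5, which binds DNA in repressive complexes with the pocket proteins, read 9.48, 9.55 and 9.42 in sicontrol and 7.78, 7.67 and 7.75 in siNRCP. It fell by 1.75 ± 0.09 (SE over 3 arrays per group, limma adjusted p = 0.0011) and was called lower in each of the 6 fits without 1 array. CDKN1A, which encodes the CDK inhibitor p21, read 9.36, 9.81 and 9.42 in sicontrol and 8.24, 7.97 and 7.93 in siNRCP. It fell by 1.48 ± 0.15 (0.0094). Its call was kept without siNRCP array 1 or 2 and lost in the other 4 such fits, with adjusted p up to 0.095.

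The largest other changes of this list were not called, with E2F2 at 1.10 ± 0.25 (SE over 3 arrays per group, limma adjusted p = 0.088), the pocket protein gene RBL1 at 0.82 ± 0.21 (0.12) and RBL2 at 0.76 ± 0.27 (0.27). The dimmer RBL1 probe read 0.03 at a mean of 6.10 to 6.13, below background. FOXM1 and MYBL2, activators of G2 and mitotic genes chosen for mention because of that role, read 0.54 ± 0.18 (0.23) and 0.42 ± 0.13 (0.18).

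**Figure D4:**
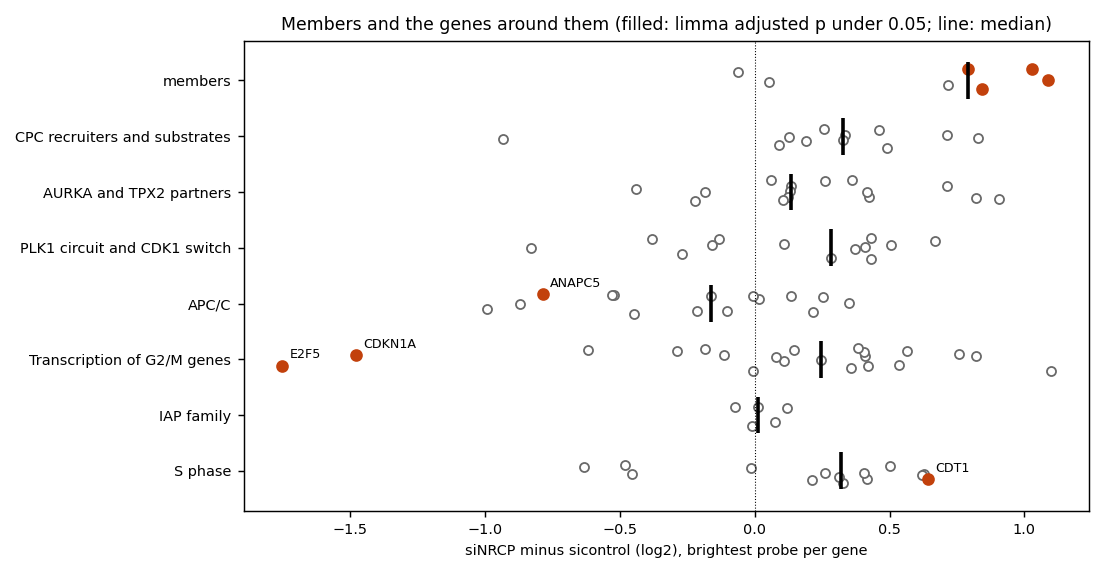
Change from sicontrol to siNRCP (x axis, log2) of the brightest probe of each gene in the 7 members and 7 lists around them, with the median of each list as a line. Filled points are calls, which outside the members are ANAPC5, E2F5 and CDKN1A below 0 and CDT1 above.

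Relatives of the members showed no call. AURKC, the germ line Aurora kinase, was not above background on its 3 probes. Of 5 measured genes of the inhibitor of apoptosis family, to which survivin belongs, 3 were above background, with BIRC6 at 0.12 ± 0.31, BIRC2 at 0.01 ± 0.26 and XIAP at -0.01 ± 0.12 (SE, n = 3 per group). In the S phase list of 14 genes 1 rose and 0 fell, with a median of 0.32, and 10 had a change above 0. Among all named genes 1.28% were called higher, 1.51% lower, and 51.7% had a change above 0. Under median scaling the list's median was 0.06, where the median gene above background read -0.14. In the fit without siNRCP array 1, 8 genes of this list were called higher and 3 lower, and 21.1% of all probes were called (10.6% higher). Each other fit without 1 array called 0 of the list. The licensing factor gene CDT1 rose by 0.64 ± 0.08 (limma adjusted p = 0.015). Its call was lost in 5 of the 6 fits without 1 array (adjusted p up to 0.13) and under median scaling, at 0.40 (adjusted p = 0.33). MCM3 read 0.63 ± 0.23 (0.27), MCM2 0.62 ± 0.20 (0.21) and the cyclin gene CCNE1 -0.63 ± 0.12 (0.057).

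The genes most like the mean of the 7 members over the 6 arrays, among 11159 other genes above background, were PUF60 (Pearson r = 0.998), ZNF426 (0.996), NOLC1 (0.994), SMOX (0.993) and MCRS1 (0.993). For TPX2 alone they were RHBDD1, TBC1D10B, TTC14, PRSS23 and ZNF442, with r of 0.997 to 0.998. None of these 10 genes is in the lists above. With 6 arrays in 2 groups, such values arise for many genes that differ between the groups.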

How the data were processed

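Total RNA (500 ng per sample) was amplified into biotin-labelled cRNA for the bead arrays, per the labels' protocols. The deposited table holds the bead intensity per probe and array, exported by the authors with BeadStudio, whose version is not stated in these sources, and not normalized between arrays. The deposited series matrix holds log2 values with the same quartiles on every array (median 7.01), which differed from a quantile normalization of the intensities by at most 0.084. Neither file carries detection p-values. The gene symbols come from the platform annotation, updated by Entrez identifier, and spans and promoters from RefSeq tables of GRCh38.p14.

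Intensities were corrected with normexp (offset 50), quantile normalized and put on the log2 scale. The functions lmFit and eBayes of limma 3.58.1, run in R 4.3.3, were applied to all 47231 probes, with no covariate and no filter. The background level was the 95th percentile of 455 olfactory receptor probes, exceeded on at least 3 arrays (19637 probes). A gene with several probes was represented by its brightest, and by each probe for the 7 members. Named list genes were those called and up to 3 others per list with the largest change above background. The members, lists and alternatives were chosen with earlier results of these data known. The fit was tested on simulated data beforehand. The number of arrays limits the precision.

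Same-numbered sicontrol and siNRCP arrays did not deviate together, so numbers were not treated as pairs. Alternatives were leaving out each array, cyclic loess, median scaling, the series matrix, uncorrected intensities, an offset of 16, array weights, trend and robust eBayes, a replicate block, a filter on background, a minimum of 1.5-fold, and averaging a gene's probes.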

Additional observations from a re-analysis of the deposited data

How the results depend on the processing

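The median change of the 7 genes stayed above 0 under every alternative run, and it moved beyond the spread between arrays under median scaling (0.55 against 0.79). The number of the 10 probes called, 5 with all arrays, was 0 under median scaling, 2 with trend and robust eBayes, and 0 to 7 with 1 array left out. It was 4 on the series matrix values, on uncorrected intensities and with an offset of 16, 5 with cyclic loess and 6 with array weights. The brighter INCENP probe was not called on the series matrix values or uncorrected intensities (limma adjusted p = 0.071 in each). CDCA8 was not called with the offset of 16 (limma adjusted p = 0.052). The count over all 47231 probes, 781 with all arrays, was 254 under median scaling, of which 16.9% were higher against 44.7%, 468 with trend and robust eBayes, 8162 with array weights, and 10 to 9955 with 1 array left out. With the replicate block 0 probes were called in limma, members included, while 4893 probes, 6 of the 10 member probes among them, had an unadjusted p under 0.05; same-numbered arrays correlated at -0.64, -0.44 and -0.21 in their deviations, so the numbers give no sign of pairing. Median scaling shifted the median gene above background to -0.14. AURKA turned to -0.19 and -0.15 under median scaling. AURKB ranged from -0.456 to 0.142 with 1 array left out, turning to 0.005 without sicontrol array 3, and to 0.13 and 0.14 without siNRCP array 2 and 3. The cause of these shifts was not tested. BIRC5, CDCA8, INCENP (brighter probe), TPX2 and PLK1 kept their direction in all 15 alternatives.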
